A study of Mus musculus with 9 samples.

Results

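Transcripts of 10 Wnt pathway genes were followed by RNA-seq in the anterior lens capsule of mice. This tissue is the front part of the thick basement membrane that wraps the lens, together with the lens epithelium attached to it. The set comprised the secreted antagonists Sfrp1, Sfrp2, Sfrp5, Frzb, Wif1, Dkk2 and Dkk3, the target genes Axin2 and Lef1, and Ctnnb1, which encodes β-catenin. They were taken by gene symbol from a table of 17527 genes, and all 10 were present. Tissue came from 3 groups with 3 libraries each, namely EGCG-treated aged mice, aged control mice and young control mice. EGCG, or epigallocatechin gallate, is a polyphenol found in green tea. The sources used here do not give strain, genotype, sex, ages, or how and for how long EGCG was given. Whether replicate libraries stem from separate animals is not stated either, so p-values reflect only the spread among these samples, which may be technical. The comparisons address how these transcripts differed with age and how they differed with EGCG in aged tissue.

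Wnt proteins are secreted lipid-modified ligands that bind Frizzled receptors and the co-receptors LRP5 and LRP6. Without ligand, β-catenin is phosphorylated in a complex of Axin, APC, GSK3 and CK1 and degraded, whereas with ligand it accumulates and acts with TCF/LEF factors on target genes. Secreted Frizzled-related proteins (Sfrp1, Sfrp2, Sfrp5 and Frzb) and Wif1 bind the ligands outside the cell. Dickkopf proteins such as Dkk2 bind the co-receptors, while Dkk3 is a divergent member of that family with no settled role at them. Axin2 is a widely used target gene whose product feeds back as an inhibitor. Lef1 encodes a DNA-binding partner of β-catenin and can itself be a target. In the lens, Wnt ligands, Frizzleds and antagonists are known to be made by the epithelium, where β-catenin is also part of adherens junctions.

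Library totals lay between 13184169 and 16528179 counts. All 17 lens epithelium markers and all 20 lens fibre markers had counts in every library. The libraries also held retinal transcripts, which differed strongly between groups. Levels are given in CPM, which are counts scaled to a common library total, here with edgeR's TMM factors. The 18 rod photoreceptor markers summed to 11670 to 11850 CPM in EGCG, 1722 to 1790 in aged control and 26110 to 26280 in young control libraries. The 8 Müller glia markers summed to 840 to 885, 716 to 772 and 1474 to 1507 CPM in the same order of groups. Markers of other tissues differed too. In that order, red cell markers summed to 20.2 to 24.9, 6.34 to 7.98 and 205 to 215 CPM. Endothelium markers summed to 16.04 to 22.35, 20.97 to 24.79 and 79.2 to 85.6 CPM, and stroma markers were also highest in young control. Corneal epithelium markers summed to 821 to 843, 1096 to 1142 and 230 to 242 CPM. Of these, 2 were called higher and 3 lower with age. The part of these tissues in the differences below was not tested. The 17 lens epithelium markers summed to 5287 to 5612 CPM in EGCG, 6684 to 6964 in aged control and 5601 to 5731 in young control libraries. Of 13711 genes tested with edgeR's quasi-likelihood test, 69.2% differed between aged and young control at a Benjamini-Hochberg adjusted p under 0.05, with 35.4% higher and 33.8% lower. Between EGCG and aged control 24.1% were called, 13.8% higher and 10.3% lower, and between EGCG and young control 63.6%, 32.3% higher and 31.4% lower. With library size as the only scaling, the split was 2937 higher and 6445 lower for aged against young control (TMM, 4847 and 4635), and 3086 higher and 611 lower for EGCG against aged control (TMM, 1894 and 1406). That scaling moved the median log2 fold change of all genes by −0.32 and 0.13.

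Per length, antagonist expression in the capsule was almost entirely Dkk3 and Sfrp1. In FPKM, a unit that divides by gene length and library total, Dkk3 had 794 ± 17.2 in EGCG, 757 ± 33.6 in aged control and 566 ± 5.30 in young control libraries (SD, n = 3 each). That placed it at rank 89, 94 and 96 of 17527 genes. Sfrp1 had 338 ± 4.10, 304 ± 15.6 and 207.5 ± 2.66 FPKM in the same groups. Ctnnb1 followed with 139 ± 4.997, 147 ± 5.51 and 128.5 ± 3.68 FPKM, and Axin2 with 3.70 ± 0.140, 2.61 ± 0.166 and 4.48 ± 0.159 FPKM. Frzb came next in EGCG and young control libraries, at 0.849 and 3.03 FPKM, while in aged control libraries Wif1 (0.714 ± 0.123) and Frzb (0.379 ± 0.248) stood in the other order. Lef1, Dkk2, Sfrp5 and Sfrp2 reached at most 0.559 FPKM in any library. Among these low genes many neighbours in the order were closer than their SDs, such as Lef1 (0.233 ± 0.038) and Sfrp5 (0.171 ± 0.110) in young control libraries. Dkk3 and Sfrp1 together held at least 99.91% of the counts of the 7 antagonists in each EGCG and aged control library and 99.55% to 99.64% in the young control libraries.

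**Figure D1:**
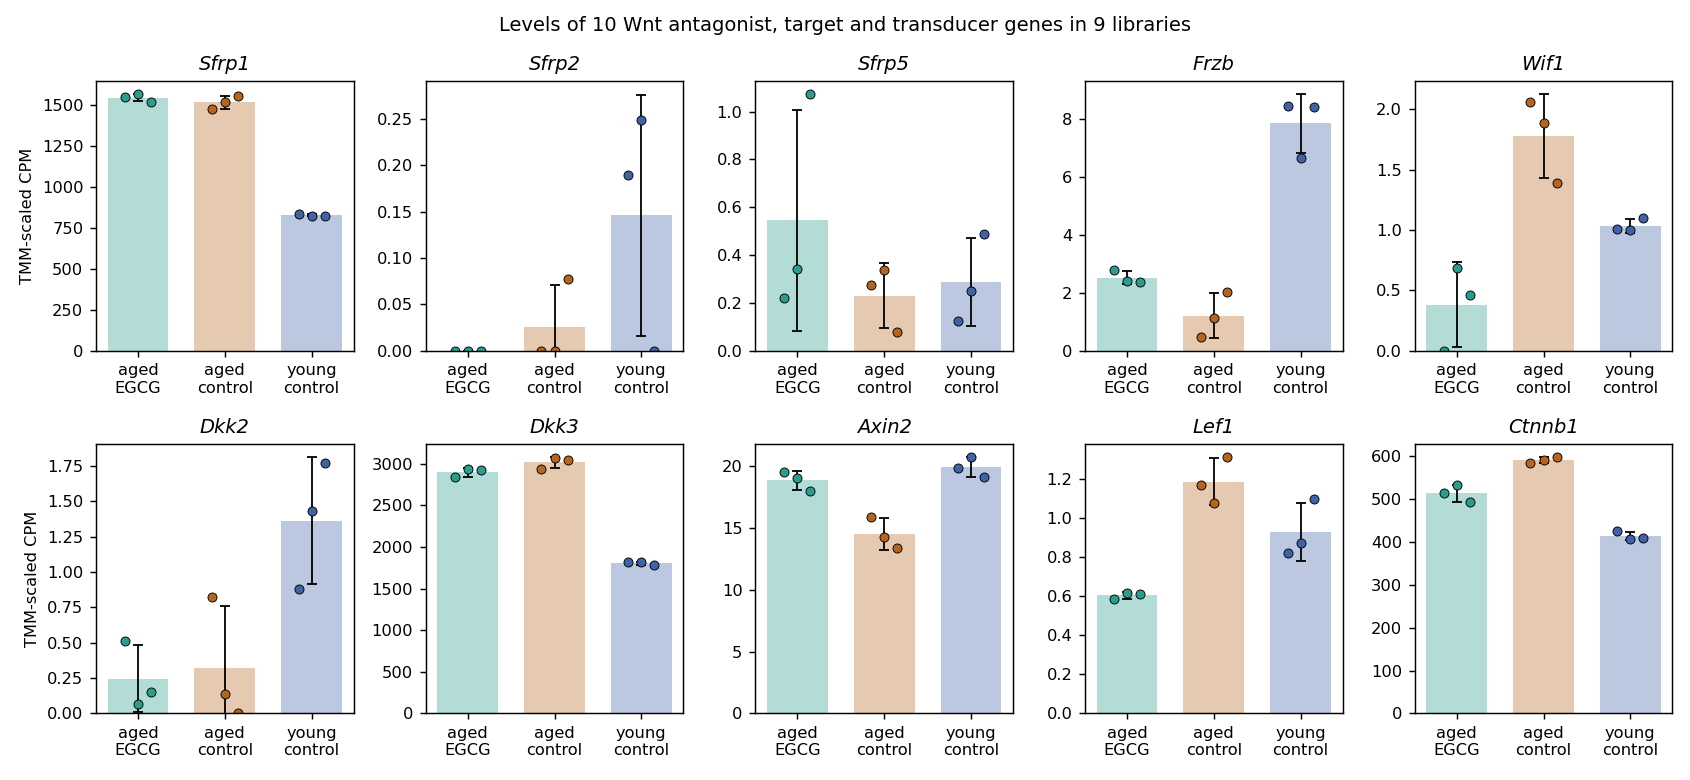
Levels of the 10 genes in each library, in TMM-scaled CPM, with the groups ordered aged EGCG, aged control and young control. Points are libraries, and bars give the mean and SD of 3. Sfrp1 and Dkk3 are high in both aged groups, Axin2 and Frzb are lowest in aged control, and Sfrp2 and Sfrp5 have few counts, with Sfrp5 highest in EGCG library 3.

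Sfrp1 and Dkk3 were both higher in aged than in young capsule, with or without EGCG. Sfrp1 (GRCm38 chromosome 8, 23411502 to 23449632, plus strand, protein coding) had 1546, 1564 and 1519 CPM in EGCG, 1476, 1515 and 1554 CPM in aged control and 835, 823 and 824 CPM in young control libraries. The EGCG and aged control libraries overlapped, and every one of them lay far above the young control libraries. Sfrp1 was 1.83-fold higher in aged than in young control (log2 fold change 0.87, SE 0.0403, 95% interval 0.79 to 0.95, edgeR adjusted p = 5.58e-24). Over 18 alternatives the age difference was called each time, with log2 fold changes from 0.40 to 0.90, the lowest of them scaled to lens epithelium genes. Sfrp1 was also higher in EGCG than in young control, by 0.90 on the log2 scale (edgeR adjusted p = 4.22e-24). Fewer cells of a type and less RNA per cell cannot be told apart in bulk tissue, here and for the genes that follow.

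Between EGCG and aged control, the Sfrp1 difference was 0.03 on the log2 scale (95% interval −0.05 to 0.11, edgeR adjusted p = 0.694). The call changed with the scaling. It was 0.15 under library size alone and in both fits of FPKM, 0.20 scaled to lens fibre genes and 0.37 scaled to lens epithelium genes, all of them called. Adjusted p ranged from 1.37e-08 to 0.931 over 18 alternatives.

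Dkk3 (chromosome 7, 112116017 to 112159057, minus strand) had 2836, 2937 and 2921 CPM in EGCG, 2934, 3067 and 3043 CPM in aged control and 1816, 1815 and 1783 CPM in young control libraries. The 2 aged groups overlapped and both stood clear of young control. Dkk3 rose 1.67-fold in aged against young control (log2 fold change 0.74, 95% interval 0.66 to 0.82, edgeR adjusted p = 2.84e-22), and by 0.68 on the log2 scale in EGCG against young control (edgeR adjusted p = 1.06e-20). Both calls held in all 18 alternatives, with log2 fold changes for age from 0.27 to 0.77. Between EGCG and aged control the log2 difference was −0.06 (95% interval −0.13 to 0.02, edgeR adjusted p = 0.301). Its sign turned with scaling, to 0.07 with library size only, 0.12 scaled to lens fibre genes and 0.28 scaled to lens epithelium genes. The last 2 of these were called, with adjusted p from 3.04e-06 to 0.530 over 18 alternatives.

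The balance of the 2 abundant antagonists can be read within a library, where scaling cancels. The ratio was chosen after the values were seen. Dkk3 had 1.83, 1.88 and 1.92 counts per Sfrp1 count in EGCG, 1.99, 2.02 and 1.96 in aged control and 2.18, 2.21 and 2.16 in young control libraries. The 3 groups did not overlap, with EGCG lowest and young control highest. An exact two-sided permutation test gave p = 0.1 for each pair of groups, which is the smallest p that 3 against 3 libraries allow.

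Frzb, a Wnt-binding antagonist (chromosome 2, 80411970 to 80447625, minus strand), moved the other way with age. It had 2.78, 2.40 and 2.38 CPM in EGCG, 0.482, 1.15 and 2.01 CPM in aged control and 8.45, 6.67 and 8.43 CPM in young control libraries. No groups overlapped, and the aged control libraries differed most among themselves, on 7, 17 and 26 counts. Frzb was 6.54-fold lower in aged than in young control (log2 fold change −2.71, 95% interval −3.36 to −2.05, edgeR adjusted p = 4.97e-10), and it was called in all 18 alternatives. The log2 fold change ran from −3.25 without aged control library 3 to −2.32 without aged control library 1, and was −1.56 on log2(FPKM + 1), which compresses low genes. In EGCG it was 2.10-fold higher than in aged control (log2 fold change 1.07, 95% interval 0.35 to 1.79, edgeR adjusted p = 0.0221). Against young control, Frzb fell by 1.64 on the log2 scale in EGCG (edgeR adjusted p = 4.70e-06).

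The call of Frzb between EGCG and aged control was lost without aged control library 1 (log2 fold change 0.69, adjusted p = 0.177), without aged control library 2 (adjusted p = 0.0612), without EGCG library 1 (adjusted p = 0.0600) and with only the 2 groups in the fit (adjusted p = 0.0815). Adjusted p ranged from 0.000586 to 0.177 over 18 alternatives. Retinal markers differ between the groups in the same order as Frzb, and their part in its differences was not tested. Per 1000 counts of rod markers, Frzb had 0.214 ± 0.0186 counts in EGCG, 0.687 ± 0.427 in aged control and 0.2995 ± 0.0396 in young control libraries. On that scale all EGCG libraries lay below all aged control libraries, the reverse of the TMM direction, and aged control overlapped young control. Per 1000 counts of Müller glia markers Frzb had 2.93 ± 0.286, 1.66 ± 1.08 and 5.28 ± 0.655 counts in the same groups, a scale on which EGCG and aged control libraries overlapped.

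Wif1, which binds Wnt ligands through its WIF domain (chromosome 10, 121033960 to 121100650, plus strand), was lowest with EGCG. It had 0, 10 and 6 counts in EGCG, 30, 28 and 18 counts in aged control and 16, 16 and 18 counts in young control libraries. In CPM these were 0, 0.686 and 0.460, against 2.06, 1.89 and 1.39 in aged control and 1.01, 0.997 and 1.10 in young control libraries. EGCG libraries lay below all others, and aged control libraries above all others. Wif1 was lower in EGCG than in aged control, with a log2 fold change of −2.19 (95% interval −3.40 to −0.97, edgeR adjusted p = 0.00498). It was called in all 18 alternatives, with adjusted p from 0.00138 to 0.0468. The value was −2.94 without EGCG library 2 and −1.62 without EGCG library 1, and on log2(FPKM + 1), which compresses low genes, it was −0.56. Against young control the log2 fold change in EGCG was −1.41 (edgeR adjusted p = 0.0474), a call lost in 10 of 18 alternatives, over all of which adjusted p ranged from 0.00368 to 0.252. It was −0.83 without EGCG library 1 and −2.15 without EGCG library 2. Between aged and young control it was 0.78 (95% interval −0.26 to 1.82, edgeR adjusted p = 0.176). Wif1 was over the low-count filter in all aged control and young control libraries but not in all EGCG libraries.

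Dkk2, a co-receptor antagonist (chromosome 3, 132085292 to 132180304, plus strand), had 7, 1 and 2 counts in EGCG, 12, 2 and 0 counts in aged control and 14, 23 and 29 counts in young control libraries. Its counts were low and uneven in both aged groups and it passed the filter through the young control libraries alone. The log2 fold change was −2.03 for aged against young control (edgeR adjusted p = 0.0103) and −2.45 for EGCG against young control (edgeR adjusted p = 0.00413). The age call was lost without aged control library 2 (adjusted p = 0.0687), aged control library 3 (0.0743) or young control library 3 (0.0621), with adjusted p from 0.000618 to 0.0743 over 18 alternatives. The size rested on single libraries. Over the libraries left out, the age value ran from −4.09 (without aged control library 1) to −1.49 (without aged control library 3), and the value for EGCG against young control from −3.54 (without EGCG library 1) to −1.99 (without EGCG library 2). Between EGCG and aged control the interval ran from −2.24 to 1.40 on the log2 scale (edgeR adjusted p = 0.795).

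Sfrp2 and Sfrp5, the other Wnt-binding antagonists, did not pass the filter. Sfrp2 (chromosome 3, 83766321 to 83774316, plus strand) had 0, 0 and 0 counts in EGCG, 0, 0 and 1 in aged control and 3, 4 and 0 in young control libraries. Sfrp5 (chromosome 19, 42197971 to 42202252, minus strand) had 3, 5 and 14 counts in EGCG, 4, 5 and 1 in aged control and 2, 4 and 8 in young control libraries. A count of 3 corresponded to 0.183 to 0.232 CPM. Sfrp5 stood above that level in some libraries of every group, and furthest in EGCG library 3, at 1.07 CPM. Neither gene was called in any comparison when fitted without the filter.

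Axin2, the feedback target (chromosome 11, 108920349 to 108950783, plus strand), was lowest in aged control capsule. It had 19.5, 19.1 and 17.95 CPM in EGCG, 15.9, 14.2 and 13.4 CPM in aged control and 19.9, 20.8 and 19.1 CPM in young control libraries. The aged control libraries lay below all others, whereas EGCG and young control libraries overlapped. Axin2 was lower in aged than in young control, with a log2 fold change of −0.46 (95% interval −0.71 to −0.21, edgeR adjusted p = 0.00115). It was called in all 18 alternatives, with log2 fold changes from −0.93 to −0.40. In EGCG it was higher than in aged control by 0.38 on the log2 scale (95% interval 0.12 to 0.63, edgeR adjusted p = 0.0227).

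The Axin2 call between EGCG and aged control was lost without aged control library 2 (adjusted p = 0.0653), aged control library 3 (0.0842), EGCG library 1 (0.0675) or EGCG library 2 (0.0588). Over 18 alternatives the log2 fold change lay between 0.32 and 0.72 and adjusted p between 5.995e-06 and 0.0842. Between EGCG and young control the log2 fold change was −0.08 (95% interval −0.32 to 0.16, edgeR adjusted p = 0.577), but it was called at −0.28 with library size only (adjusted p = 0.0447) at −0.36 scaled to lens fibre genes (adjusted p = 0.0116), and at −0.22 and −0.27 in the fits of FPKM. Adjusted p ranged from 0.0116 to 0.803 over its 18 alternatives. The retinal markers were also lowest in aged control, and their part in the Axin2 difference was not tested. Per 1000 counts of lens epithelium markers, Axin2 had 3.44 ± 0.243 counts in EGCG, 2.13 ± 0.230 in aged control and 3.52 ± 0.171 in young control libraries, again with aged control alone below the others. The marker sum itself was highest in aged control, and the ratio does not set apart Axin2 reads from other tissues.

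Lef1 (chromosome 3, 131110471 to 131224356, plus strand) was scarce. It had 8, 9 and 8 counts in EGCG, 17, 16 and 17 in aged control and 13, 14 and 18 in young control libraries, or 0.586, 0.617 and 0.614 CPM against 1.17, 1.08 and 1.32 and against 0.820, 0.873 and 1.10 CPM. All EGCG libraries lay below all libraries of both other groups. The difference did not pass the test, with a log2 value of −0.96 for EGCG against aged control (95% interval −2.07 to 0.16, edgeR adjusted p = 0.228) and −0.61 against young control (edgeR adjusted p = 0.341, and from 0.0496 to 0.561 over 18 alternatives, the lowest on log2(FPKM + 0.1)). For aged against young control the log2 value was 0.35 (edgeR adjusted p = 0.561), and it took the other sign, −0.10 and −0.12, when scaled to lens fibre or lens epithelium genes. Axin2 and Lef1 each overlap an antisense gene, Gm11670 and Gm43352. Whether the counting used strand is not stated in the sources used here, so reads of the 2 strands may be mixed in these values.

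Promoter sequences were available from RefSeq (GRCm38.p6) for 8 of the 10 genes, in 12 windows that run from 250 bases before to 50 bases after an annotated start. Those of Frzb and Axin2 are shown because these were the genes called lower with age and higher with EGCG, and a window of Lef1 because it holds the searched letters more than once. Capitals mark CTTTGA or its reverse complement TCAAAG, the core letters to which TCF/LEF factors are known to bind. The Frzb window is chr2:80447347-80447646 on the minus strand, the Axin2 window chr11:108920099-108920398 on the plus strand and the Lef1 window, that of an internal start, chr3:131156044-131156343 on the plus strand. Each is printed 5′ to 3′ on the strand of its gene.
Frzb: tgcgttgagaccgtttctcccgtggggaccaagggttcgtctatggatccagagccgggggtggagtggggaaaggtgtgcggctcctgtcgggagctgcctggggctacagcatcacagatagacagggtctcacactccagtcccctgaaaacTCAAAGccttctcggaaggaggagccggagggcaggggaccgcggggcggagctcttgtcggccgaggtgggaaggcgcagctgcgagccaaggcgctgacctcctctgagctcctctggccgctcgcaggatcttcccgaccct
Axin2: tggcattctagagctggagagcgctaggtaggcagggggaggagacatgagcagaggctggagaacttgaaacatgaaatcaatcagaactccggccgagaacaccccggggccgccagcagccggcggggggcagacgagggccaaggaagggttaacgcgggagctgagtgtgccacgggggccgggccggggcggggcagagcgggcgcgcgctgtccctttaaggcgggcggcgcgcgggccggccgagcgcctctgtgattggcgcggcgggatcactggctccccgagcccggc
Lef1: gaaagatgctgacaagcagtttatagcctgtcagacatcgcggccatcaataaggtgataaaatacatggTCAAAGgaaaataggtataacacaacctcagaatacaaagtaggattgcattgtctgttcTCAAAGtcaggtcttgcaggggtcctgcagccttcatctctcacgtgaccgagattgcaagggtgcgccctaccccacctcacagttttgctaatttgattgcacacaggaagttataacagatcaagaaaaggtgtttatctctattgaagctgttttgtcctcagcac
The Frzb window held 1 match, at position 156 counted from its first base, and the Lef1 window held 2, at positions 71 and 131. The Axin2 window, with 70.0% G or C, held none, and neither did the other 9 windows, those of Sfrp2, Sfrp5, Wif1, Dkk2 and Ctnnb1 among them. Of 32851 promoter windows of full length, with 1 chromosome left out, 16.0% held the letters on either strand, against 2 of the 12 windows here. Some of the Lef1 windows overlap each other, as do those of Ctnnb1. A match is a description of the letters, and these windows say nothing of distant elements.

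Ctnnb1 (chromosome 9, 120929216 to 120960507, plus strand) was highest in aged control in scaled counts. It had 513, 532.5 and 493 CPM in EGCG, 585, 589.5 and 599 CPM in aged control and 425, 406 and 409 CPM in young control libraries. The 3 groups did not overlap. With TMM scaling it was higher in aged than in young control (log2 fold change 0.52, edgeR adjusted p = 4.03e-14), and lower in EGCG than in aged control (log2 fold change −0.20, 95% interval −0.29 to −0.11, edgeR adjusted p = 0.000391). Against young control, EGCG libraries were 0.31 higher on the log2 scale (edgeR adjusted p = 5.47e-08).

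These Ctnnb1 differences depended on the scaling. For aged against young control the log2 fold change was 0.07 scaled to lens fibre genes (adjusted p = 0.234) and 0.04 scaled to lens epithelium genes (adjusted p = 0.521), with adjusted p from 6.67e-30 to 0.521 over 18 alternatives. For EGCG against aged control it was −0.08 with library size only (adjusted p = 0.221) and −0.03 scaled to lens fibre genes (adjusted p = 0.692), and it turned to 0.14 scaled to lens epithelium genes (adjusted p = 0.0278), within a range of 4.05e-06 to 0.692. For EGCG against young control it was 0.04 scaled to lens fibre genes (adjusted p = 0.537, the highest of 18 alternatives, the lowest being 4.14e-11). Part of Ctnnb1 lies opposite Ulk4 and 4930593C16Rik, whose reads could be mixed with its own.

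**Figure D2:**
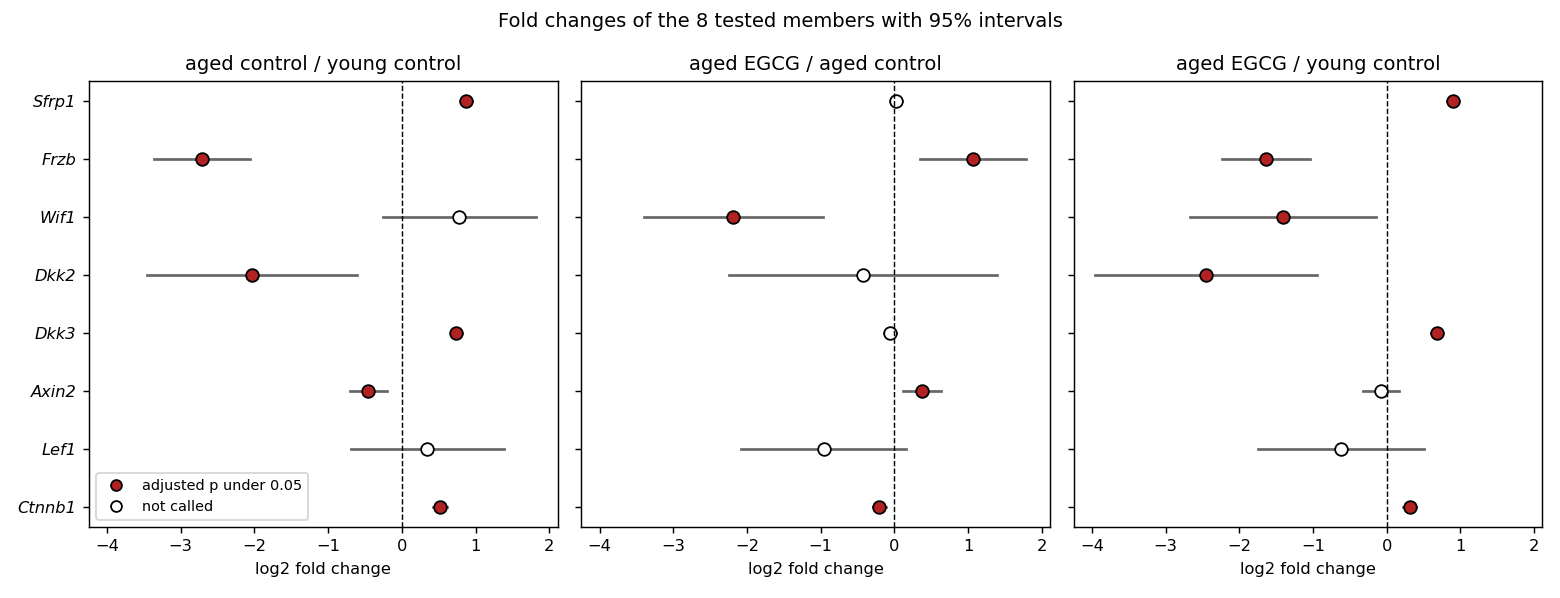
Log2 fold changes of the 8 tested genes in the 3 comparisons, with 95% intervals from edgeR. Filled points passed an adjusted p of 0.05. Sfrp1 and Dkk3 lie to the right and Frzb and Dkk2 to the left against young control, and Wif1 lies furthest to the left for EGCG against aged control.

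Of the 10 genes, 8 were tested. Between aged and young control 3 were called higher (Sfrp1, Dkk3, Ctnnb1), 3 lower (Frzb, Dkk2, Axin2) and 2 were not called, beside the 69.2% called among all genes. Dkk2 was tested only because it was high in young control, so its place among the lower genes against young control is tied to the filter. Frzb was over the low-count filter in all EGCG and young control libraries, but not in all aged control libraries, where it was lowest. Wif1 and Lef1 were over it in all libraries of both control groups, but not in all EGCG libraries, where they were lowest. Frzb calls that involve aged control, and Wif1 calls that involve EGCG, are thus also tied in part to the filter. With age, the median log2 fold change of the 8 genes was 0.43, against 0.02 over all genes. That median lies between Lef1 at 0.35, which was not called, and Ctnnb1 at 0.52, whose call depended on the scaling. Between EGCG and aged control 2 were called higher (Frzb, Axin2), 2 lower (Wif1, Ctnnb1) and 4 were not called, beside 24.1% called among all genes, and the median was −0.13 against 0.00 over all genes. With library size only, or on FPKM, 1 member was called lower in that comparison. Between EGCG and young control 3 were called higher, 3 lower and 2 were not called, beside 63.6% of all genes. The median there was −0.35, against −0.02 over all genes. The comparisons share libraries, so their counts are not independent of each other. Groups did not overlap for 7 of 8 genes between aged and young control (72.1% of all genes), 5 of 8 between EGCG and aged control (33.5%) and 7 of 8 between EGCG and young control (68.3%).

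**Figure D3:**
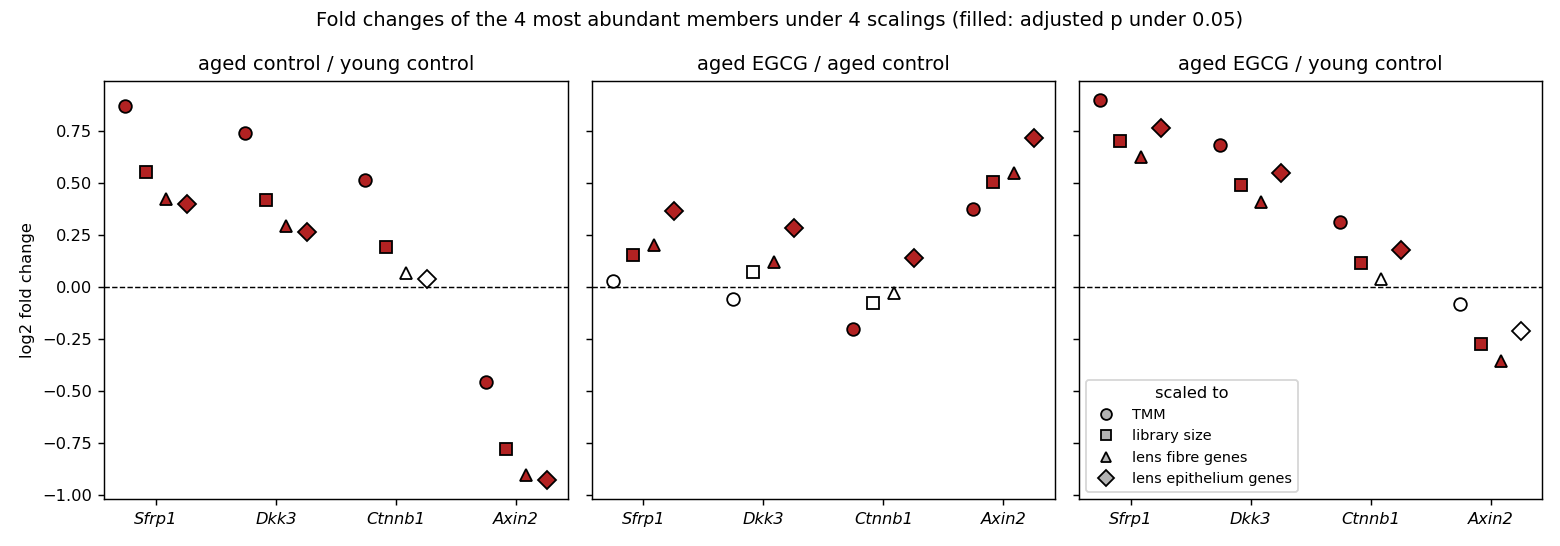
Log2 fold changes of the 4 most abundant genes of the set under TMM scaling and under scaling to library size, lens fibre genes and lens epithelium genes. Filled points passed an adjusted p of 0.05. Axin2 keeps its sign in every panel, whereas Ctnnb1 and Dkk3 change sign between EGCG and aged control.

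Relative to the lens epithelium markers of the same library, a scale chosen after the values were seen, both abundant antagonists were highest with EGCG. Sfrp1 had 282 ± 10.9 counts per 1000 marker counts in EGCG, 222 ± 1.22 in aged control and 146 ± 2.68 in young control libraries. Dkk3 had 529 ± 8.05, 442 ± 6.24 and 319 ± 6.92. Ctnnb1 had 93.7 ± 5.05, 86.5 ± 0.813 and 73.1 ± 2.45. The 3 groups were free of overlap for each of these genes, and an exact permutation test cannot give a p below 0.1 for them. The marker sum itself was lower in EGCG than in aged control libraries.

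**Figure D4:**
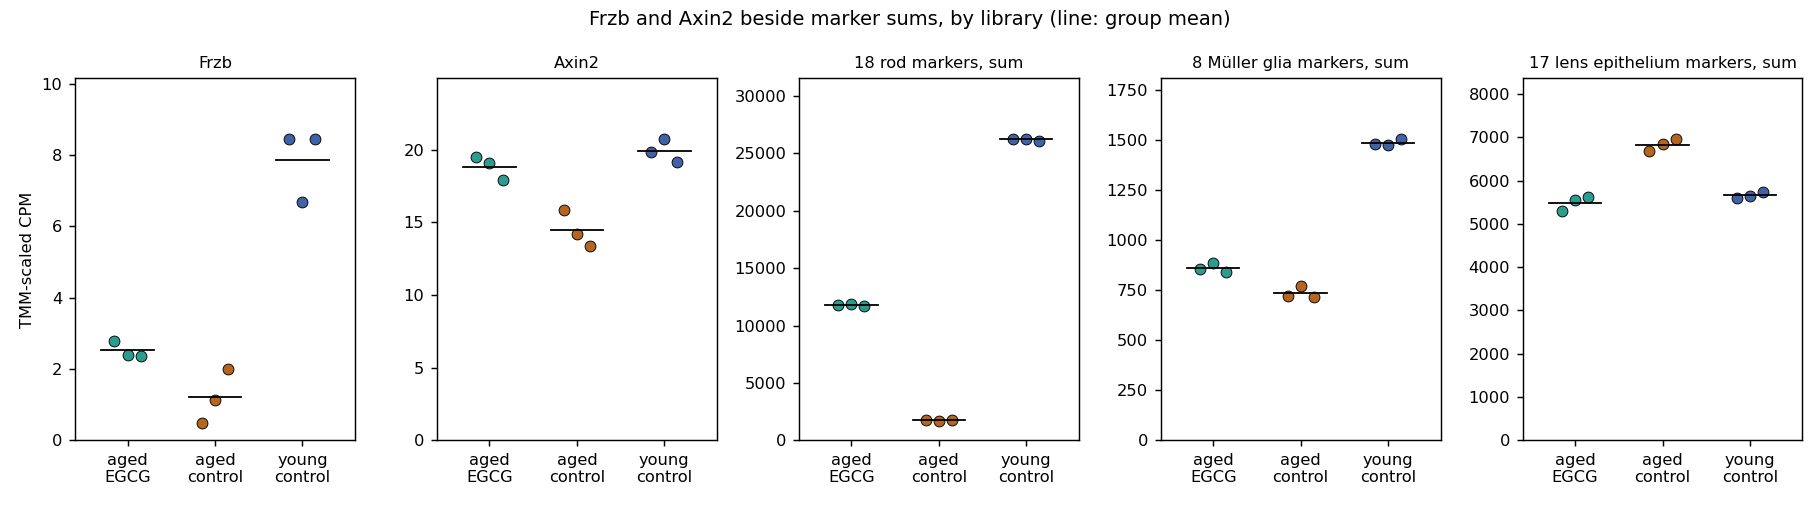
Levels of Frzb and Axin2 beside the summed levels of rod, Müller glia and lens epithelium markers, by library, in TMM-scaled CPM. Rod and Müller glia markers are lowest in aged control and highest in young control libraries, which is also the order of Frzb.

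The rest of the Wnt pathway was read from lists of 115 other genes, 107 of them in the table and 83 tested. A few genes stand in more than one list. Between aged and young control 32 were higher, 22 lower and 29 not called, so that 65.1% were called, beside 69.2% of all genes tested. Their median log2 fold change was 0.18, against 0.02 over all genes. With library size only, 20 were higher and 31 lower, and scaled to lens epithelium genes, 15 were higher and 40 lower. Between EGCG and aged control 7 were higher and 15 lower, or 26.5% called beside 24.1% of all genes, with a median of −0.08 against 0.00 over all genes. Under library size scaling 15 were higher and 9 lower, whereas scaling to lens epithelium genes gave 40 higher and 2 lower. The counts of each list are descriptions, to be read against these shares of all genes. The genes named for aged against young control kept direction and call under all 3 other scalings.

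Of 9 ligands and secretion factors tested, 5 were higher in aged than in young control, 1 lower and 3 not called, and under each of the 3 other scalings 4 were higher and 1 lower. Wnt7b had 917 ± 7.49 CPM in EGCG, 923.5 ± 15.4 in aged control and 356 ± 2.76 in young control libraries, a log2 fold change of 1.38 with age (edgeR adjusted p = 9.87e-31). Wnt7a had 221 ± 4.81, 209 ± 3.41 and 78.1 ± 1.13 CPM. Wls, the carrier that brings Wnt proteins to the cell surface, had 343 ± 12, 370 ± 13.1 and 158 ± 6.34 CPM. The 3 genes rose by 1.38, 1.42 and 1.23 on the log2 scale, and Wnt5b by 0.76. The lower one, Ndp, a Frizzled-4 ligand known from retinal vessels, fell by 2.76 with age, in the same direction as the retinal markers, whose part was not tested. With EGCG against aged control none of the 9 was called with TMM scaling, 2 were higher with library size only and 5 scaled to lens epithelium genes. Wnt7b had 0.594 ± 0.00671 counts per Sfrp1 count in EGCG, 0.610 ± 0.0246 in aged control and 0.430 ± 0.00617 in young control libraries, where the 2 aged groups overlapped.

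Of 16 receptors and co-receptors, 3 were higher and 3 lower in aged than in young control with TMM scaling, against 2 higher and 4 lower under library size scaling and 2 higher and 8 lower scaled to lens epithelium genes. Ryk, an atypical Wnt receptor, rose by 1.21 on the log2 scale and Fzd7 by 0.94, while Fzd5 fell by 0.83 and Fzd4 fell by 0.50. The group means of Fzd5 and Fzd4 had the order of the retinal markers, whose part was not tested. In EGCG against aged control 3 were lower and none higher with TMM scaling, against 6 higher and none lower scaled to lens epithelium genes. Fzd7 had 19.9 ± 2.95 CPM in EGCG and 27.5 ± 0.862 in aged control libraries (log2 fold change −0.47, edgeR adjusted p = 0.00307), a call lost scaled to lens fibre or lens epithelium genes. Fzd1 and Fzd3 had log2 fold changes of −0.52 and −0.33, and neither was called scaled to lens epithelium genes. Fzd1 kept its call with library size only and scaled to lens fibre genes, whereas Fzd3 (edgeR adjusted p = 0.0489 with TMM scaling) lost it under both.

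Among 12 other extracellular regulators, 5 were higher with age and 1 lower with TMM scaling. The balance turned to 3 higher and 4 lower under library size scaling, and to 3 higher and 6 lower scaled to lens fibre or lens epithelium genes. In EGCG against aged control 1 was higher and 3 lower, against 1 higher and 1 lower scaled to lens epithelium genes. Rspo1, an R-spondin that raises Wnt receptor levels, had 163 ± 8.79 CPM in EGCG, 200 ± 11.5 in aged control and 74.2 ± 2.61 in young control libraries. It rose by 1.43 on the log2 scale with age. Igfbp4, an IGF-binding protein that can also restrain Wnt receptors, had 61.7 ± 4.84 CPM in EGCG, 102 ± 6.84 in aged control and 42.4 ± 3.62 in young control libraries. It rose by 1.27 with age and fell by 0.73 in EGCG against aged control (edgeR adjusted p = 3.06e-11), a direction and call kept under the 3 other scalings. Rspo1 and the R-spondin receptor Lgr4 had log2 fold changes of −0.30 and −0.22 in that comparison, both turning sign scaled to lens epithelium genes. Lgr5, another R-spondin receptor, fell by 2.73 with age. It had 2.43 ± 1.996 CPM in EGCG, 1.16 ± 0.420 in aged control and 7.73 ± 0.511 in young control libraries. In EGCG against aged control its log2 fold change was 1.08 (edgeR adjusted p = 0.0417), although the libraries of these groups overlapped. The retinal markers have the same order of groups, and their part was not tested.

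In the cytoplasmic list, 10 of 22 genes were higher and 9 lower with age, where the direction of the list turned with scaling (5 higher and 11 lower with library size only, 1 higher and 13 lower scaled to lens epithelium genes). The scaffold genes Apc fell by 0.96 and Apc2 fell by 1.73, and the kinase gene Gsk3b fell by 0.80, whereas the casein kinase gene Csnk1g3 rose by 0.80. Apc had 77.9 ± 2.56 CPM in EGCG, 66.4 ± 2.37 in aged control and 129 ± 6.21 in young control libraries, and its log2 fold change of 0.23 between EGCG and aged control passed the test (edgeR adjusted p = 0.00592). Nkd1, a feedback inhibitor that is itself a target, had 2.56 ± 0.404, 1.09 ± 0.533 and 8.17 ± 0.519 CPM in the same groups. It fell by 2.92 with age and was 1.24 higher on the log2 scale in EGCG than in aged control (edgeR adjusted p = 0.00514). The group means of Apc, Apc2, Gsk3b and Nkd1 had the order of the retinal markers, whose part was not tested. In EGCG against aged control 3 of the 22 were higher and 2 lower, against 17 higher and none lower scaled to lens epithelium genes.

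Of 16 nuclear partners, 5 were higher and 5 lower with age with TMM scaling, against 3 higher and 8 lower under library size scaling and 3 higher and 9 lower scaled to lens fibre or lens epithelium genes. In the TLE co-repressor family, Tle5 rose by 0.99 on the log2 scale, while Tle2 fell by 1.73. The co-activator genes Bcl9 and Ep300 also fell, Bcl9 with a log2 fold change of −1.63 and Ep300 with −0.94. The group means of Tle2, Bcl9 and Ep300 had the order of the retinal markers, whose part was not tested. In EGCG against aged control 1 was higher and 4 lower, with Tcf7l1, a TCF factor that mostly represses, at −0.55 (edgeR adjusted p = 0.00167). Scaled to lens epithelium genes, 7 were higher and none lower, and Tcf7l1 was not called.

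Of 15 other target genes, 5 were higher and 5 lower with age with TMM scaling, against 4 higher and 6 lower under library size scaling and 3 higher and 7 lower scaled to lens fibre or lens epithelium genes. Ccnd1, which encodes cyclin D1, had 237 ± 8.01 CPM in EGCG, 338 ± 9.65 in aged control and 135 ± 3.98 in young control libraries. It rose by 1.32 on the log2 scale with age and fell by 0.51 in EGCG against aged control (edgeR adjusted p = 6.32e-12), and both calls held under the 3 other scalings. The adhesion receptor gene Cd44 rose by 1.37 with age, and Jun fell by 1.36. Jun was also lower in EGCG than in aged control, by 0.43 on the log2 scale (edgeR adjusted p = 5.13e-06). Id2 was lower in that comparison too, with a log2 fold change of −0.51 (edgeR adjusted p = 4.46e-05). Both genes kept these calls under library size and lens fibre scaling. Ccn4, a matricellular target, had 2.32 ± 0.0959 CPM in EGCG, 0.663 ± 0.349 in aged control and 8.90 ± 1.46 in young control libraries, the order that the means of Axin2, Nkd1 and Frzb also had. It fell by 3.73 with age and was 1.80 higher in EGCG than in aged control (edgeR adjusted p = 0.000206). That order is also the order of the retinal markers, whose part was not tested. The means of Apc, Apc2, Bcl9 and Fzd5 had it too, whereas Ccnd1 and Cd44 had their highest means in aged control. In EGCG against aged control 4 of the 15 were higher and 3 lower, against 6 higher and 1 lower scaled to lens epithelium genes.

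**Figure D5:**
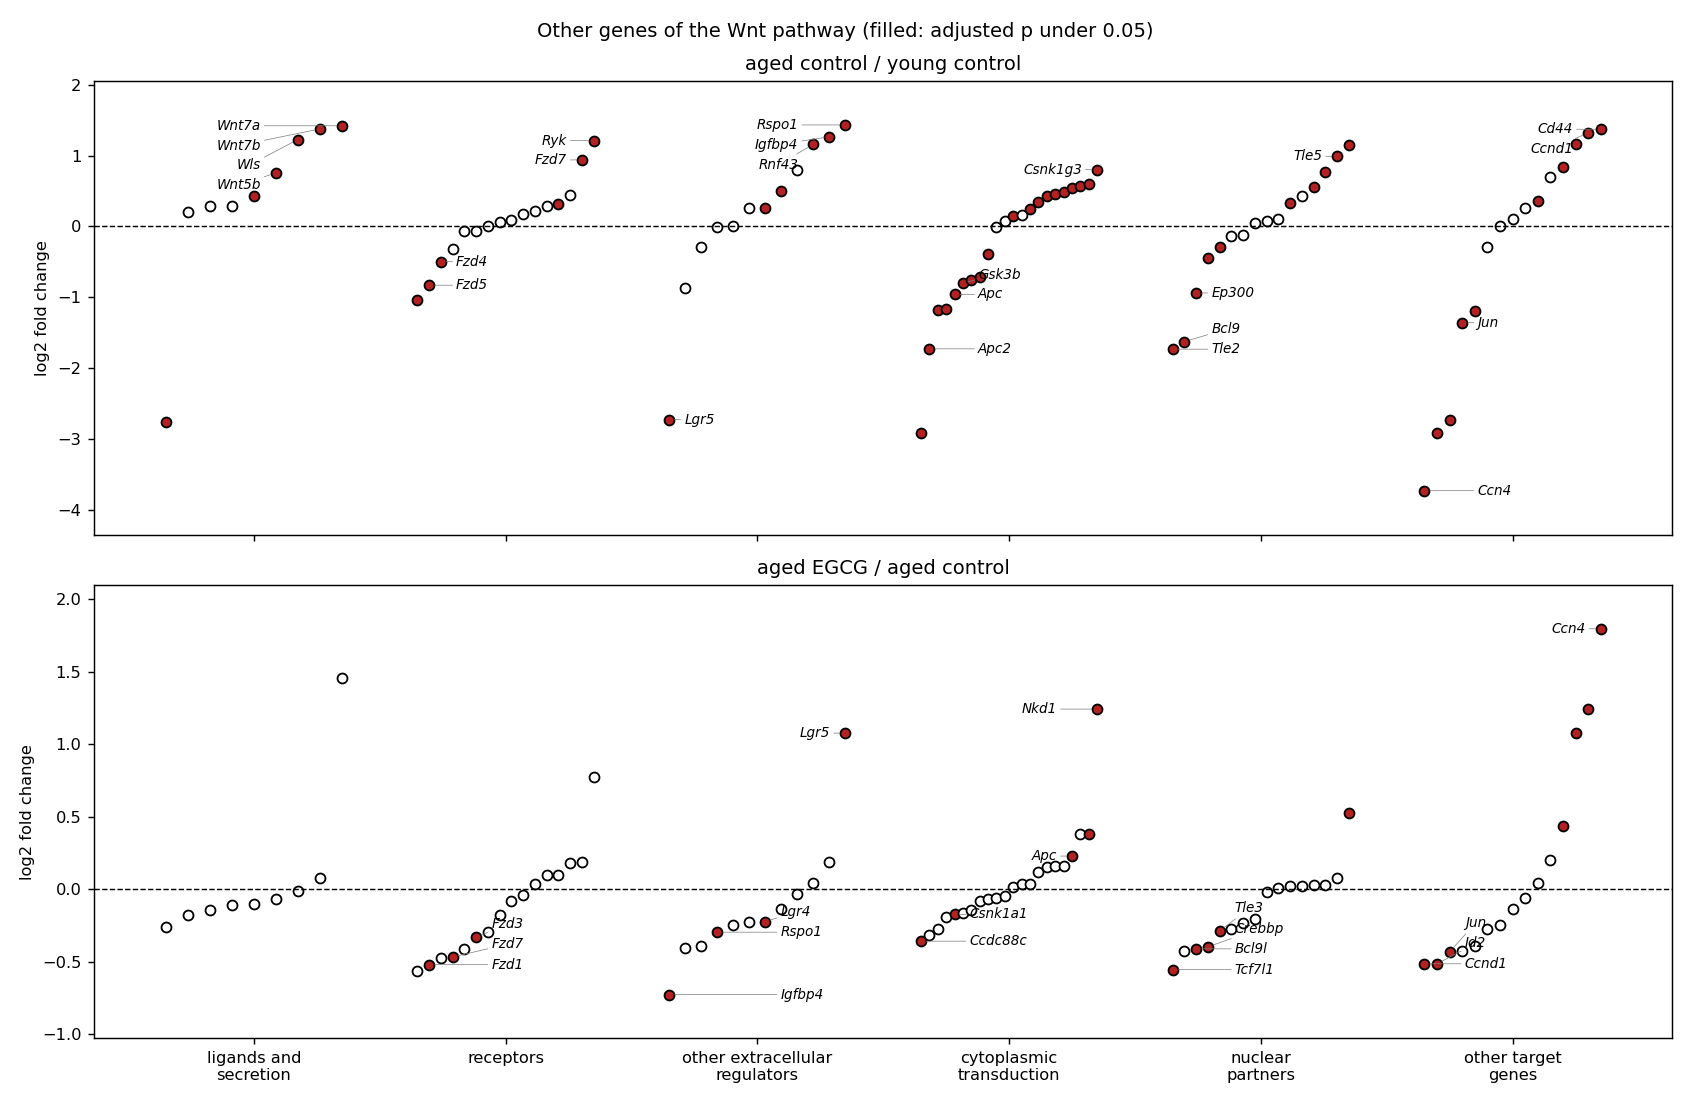
Log2 fold changes of the other tested Wnt pathway genes by role, for aged control over young control (top) and aged EGCG over aged control (bottom). Each point is a gene, ordered by value within its list, and filled points passed an adjusted p of 0.05. Wnt7a, Wnt7b and Wls lead the ligands with age, and Ccn4, Nkd1 and Lgr5 have the largest values among the genes called higher with EGCG. For Lgr5 the EGCG and aged control libraries overlapped.

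The genes most like each member over the 9 libraries were found by Pearson's r on log2(CPM + 0.1), among 10389 genes with a mean of at least 5 CPM. All such values share the 3 group means and are a description. Closest to Sfrp1 were Dmpk (r = 0.9992), Ccng1 and Cdkn1a (both r = 0.9986), and 1607 genes had r over 0.95. Closest to Dkk3 were Mknk2 (r = 0.9987), Basp1 and Carhsp1, with 1730 genes over 0.95. Ctnnb1 was nearest to Tpm4 (r = 0.9957), Ski and Cavin1. Frzb was nearest to Prrt1 (r = 0.9896), Atf6 and Kcna2, with 124 genes over 0.95, and Axin2 to Lbh (r = 0.9848), Sephs2 and Cacna2d3, with 48. The low-count genes had lower values, with Wif1 nearest to Pdyn (r = 0.9638), Dkk2 to Cops9 (r = 0.9769) and Lef1 to Mest (r = 0.9731).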

How the data were processed

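Libraries were prepared from capsule RNA by the SMARTER mRNA-Seq method, per the labels' protocols. The authors deposited whole-number read counts per gene symbol and a table of FPKM values. Each deposited FPKM value above 0 equalled count over 1 length per gene and the library total within 0.01% (138164 entries), so FPKM carry no scaling beyond library size. The genome build was GRCm38 (mm10), per the submitters' processing notes. The sources used here do not state the aligner, the counter, the annotation or whether strand was used.

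Counts of all 9 libraries were fitted together by group with edgeR 4.0.16 in R 4.3.3 (TMM factors, filterByExpr with its minimum count of 10, quasi-likelihood F test, two-sided), with Benjamini-Hochberg adjustment across the 13711 genes left. A gene was called at an adjusted p under 0.05. Intervals are 95% and hold only counting error and library spread. TMM factors were 0.9811 to 0.9889 in EGCG, 0.8809 to 0.9263 in aged control and 1.119 to 1.131 in young control libraries. No 2 libraries agreed within sampling noise. The steps were tested on simulated counts in which few genes were changed, none of them with low counts. That test does not cover low-count genes or changes in a large share of genes. DESeq2 1.42.0, limma 3.58.1 on log2(FPKM + 1) and log2(FPKM + 0.1), other scalings, no filter, 2-group fits, a replicate block and leaving out each library were alternatives.

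The genes of the set, the pathway and marker lists, and the naming rule were chosen with earlier results of these data known. The rule named all 10 genes, up to 4 called members with the smallest adjusted p per pathway list and comparison, and the 3 genes most like each. Some of the genes that it picked are left out of the text. Ndp was named after its values were seen, as the only ligand called lower. Locations are from GENCODE M21 (GRCm38) and promoter sequences from RefSeq (GRCm38.p6).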

Additional observations from a re-analysis of the deposited data

How the results depend on the processing

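The 8 tested genes gave 24 log2 fold changes, and 431 values under 18 alternatives: 383 kept direction and side of the threshold, 28 lost the call, 10 gained it and 10 changed sign. Dkk2 could not be tested in the fit of EGCG and aged control alone. For EGCG against aged control, Dkk3 turned to 0.07 with library size only, 0.12 (lens fibre scaling), 0.28 (lens epithelium scaling) and 0.07 on log2(FPKM + 1) and on log2(FPKM + 0.1), Ctnnb1 to 0.14 (lens epithelium scaling), and Dkk2 to 1.65 without aged control library 1 and 0.03 without EGCG library 2 (range −1.52 to 1.65 over the libraries left out). For aged against young control, Lef1 turned to −0.10 (lens fibre) and −0.12 (lens epithelium scaling).

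Aged against young control, genes called higher were 2937 with library size only, 2245 with lens fibre and 2092 with lens epithelium scaling, 2947 on log2(FPKM + 1) and 2940 on log2(FPKM + 0.1). Genes lower were 7265 (lens fibre) and 7416 (lens epithelium). Other Wnt pathway genes higher were 20, 15, 15, 18 and 18 under these 5 settings, and lower 39 (lens fibre) and 40 (lens epithelium).

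EGCG against aged control, 7788 genes were called with lens epithelium scaling. Genes higher were 3086 (library size), 3868 (lens fibre) and 7569 (lens epithelium), and genes lower 611, 471 and 219, then 507 on log2(FPKM + 1) and 540 on log2(FPKM + 0.1). Of the 8 genes, 1 was called lower under each of these 5 settings, and called higher were 4 (lens fibre), 5 (lens epithelium) and 1 in the 2-group fit. Pathway genes higher were 15, 21, 40, 11 and 12, and lower 9, 6, 2, 5 and 5. Leaving out 1 library left between 0 and 2 of the 8 genes called higher, and 2 lower in each case.

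EGCG against young control, 2637 genes were higher with lens fibre scaling, with 17 pathway genes higher and 40 lower, and 5 of the 8 genes were lower on log2(FPKM + 0.1). The causes were not tested. Same-numbered libraries did not deviate together (r between −0.031 and 0.067 across genes, which are not independent replicates). With the replicate number as a block, 3338 genes were called between EGCG and aged control and 9451 between aged and young control, and all 45 results kept their direction and call, or stayed within 1.5 times for counts. Depth limits Sfrp2, Sfrp5, Dkk2, Wif1 and Lef1 most.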
